A study of Mus musculus with 29 samples.

Results

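The genes described here are the adult globins and a small set of erythroid genes in mouse liver. They were chosen by name, as the entries of the count table called Hba-a1, Hba-a2, Hbb-bs, Hbb-bt, Alas2, Slc4a1, Ahsp or Epb42. Of these 8 genes 7 were found among the 55421 genes of the table, and Ahsp was not analysed here. The set was chosen for its levels across the 6 groups of mice, so its levels, fold changes and counts of calls are given as a description of the values that chose it, with no p, and support nothing.

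Bulk RNA-seq was done on polyadenylated RNA of whole liver, to ask what HDM201, a small molecule that keeps MDM2 from binding p53, changes in the aged animal. Old mice were C57BL/6J, 20 months of age for females and 24 months for males, and were given either HDM201 at 10 mg/kg by oral gavage once a day for 14 days, or vehicle, a buffered methylcellulose. Young mice, aged 5 months and of the strain written C57BL6/N, all had vehicle, so age cannot be told apart from substrain. Counts covered 5 young females, 4 old females on vehicle and 5 old females on HDM201. In males these numbers were 4, 4 and 5. Old vehicle male 1 and young vehicle male 5 had only FPKM values. Ages are those of the labels, from which the methods differ by 1 month for old females and for young mice. The methods also state that 1 young male was excluded because of a wound and suspected infection, without saying which one. The labels name no genetic modification, and no source states whether the livers were perfused.

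Hemoglobin is a tetramer of alpha and beta globin chains, each with a heme. In adult C57BL/6 mice the alpha chains come from the neighbouring genes Hba-a1 and Hba-a2 and the beta chains from the neighbouring genes Hbb-bs and Hbb-bt. Alas2 is the erythroid, X-linked form of the enzyme that starts heme synthesis, Slc4a1 is band 3, the anion exchanger of the red cell membrane, and Epb42 is a protein that ties band 3 to the membrane skeleton. Reticulocytes in blood still hold globin RNA, so whole liver that contains blood yields globin reads, and the liver is also a site of red cell production before birth and, under stress, in adults. In bulk tissue fewer cells of a type and less RNA per cell cannot be told apart, and neither can globin RNA from blood in the vessels and from red cell precursors in the tissue.

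Total counts on genes were between 16485900 and 23570458 per mouse, with a median of 19149235. Values are given as CPM, counts scaled to library size, scaled by the trimmed mean of M values (TMM). The hepatocyte gene Alb was at 59480 to 133800 CPM in every mouse. Livers did differ in genes of other blood cells. Of 16 neutrophil markers Cebpe, the highest, was left out of the sums below after values were seen, since it went the other way with age. The summed level of the other 15 was 2.35 to 19.6 CPM in 22 mice and 35.4 to 67.8 CPM in old vehicle females 2 and 4, old vehicle male 4 and old HDM201 males 4 and 5.

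The sequences of the 4 globin genes are shown first because they bear on what each count can mean. The coding sequences of Hba-a1 and Hba-a2, of 429 bases on chromosome 11, differ at 1 base, C381T, and those of Hbb-bs and Hbb-bt, of 444 bases on chromosome 7, differ at 1 base, C417T. Positions are counted from 1 at the first base of the start codon, the first gene's base comes first, and both changes lie in exon 3 at the third base of a codon. The 41 bases around each, from the GENCODE transcripts on GRCm38, the assembly of mm10, read as follows with the differing base in capitals.
Hba-a1, chr11:32284323-32284363, plus strand: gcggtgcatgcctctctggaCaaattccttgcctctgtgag
Hba-a2, chr11:32297140-32297180, plus strand: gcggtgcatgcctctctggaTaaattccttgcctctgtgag
Hbb-bs, chr7:103826672-103826712, minus strand: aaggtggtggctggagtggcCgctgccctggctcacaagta
Hbb-bt, chr7:103812663-103812703, minus strand: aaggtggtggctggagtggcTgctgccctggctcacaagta
Of the stretches of 100 bases in the annotated Hba-a2 transcript 25.5% had no identical stretch in the annotated Hba-a1 transcript, against 43.5% the other way. For Hbb-bs and Hbb-bt these shares were 37.4% and 45.2%. The Hba-a1 transcript has 196 bases before its start codon, against 35 in Hba-a2. Part of the 196 lies before the RefSeq start, in sequence that both genes share on the genome. So 43.5% overstates how much of Hba-a1 can be told apart by alignment to the genome. A read that lies within a shared stretch cannot be assigned to 1 gene by its sequence, and how the authors' counting treated such reads is not given in the sources used here. The level of each single globin gene is therefore uncertain. A sum over a pair does not depend on how reads were split between its genes, but it may still lack shared reads.

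The bases before the start of transcription are shown because Alas2 and the globins differed in their pattern over the groups. Erythroid promoters often carry a GATA motif, bound by GATA1, and a CACCC box, bound by KLF1, beside the more general TATA and CCAAT boxes. The 220 bases before each RefSeq start on GRCm38.p6 follow, with the TATA box (letters TATAA), the CCAAT box, the CACCC box and the GATA motif (letters GATAA) in capitals wherever they stand on either strand.
Hba-a2, chr11:32296272-32296491, plus strand: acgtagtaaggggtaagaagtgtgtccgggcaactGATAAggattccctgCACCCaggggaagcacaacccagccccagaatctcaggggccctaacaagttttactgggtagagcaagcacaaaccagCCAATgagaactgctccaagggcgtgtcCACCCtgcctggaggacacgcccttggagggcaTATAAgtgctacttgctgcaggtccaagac
Hbb-bs, chr7:103827929-103828148, minus strand: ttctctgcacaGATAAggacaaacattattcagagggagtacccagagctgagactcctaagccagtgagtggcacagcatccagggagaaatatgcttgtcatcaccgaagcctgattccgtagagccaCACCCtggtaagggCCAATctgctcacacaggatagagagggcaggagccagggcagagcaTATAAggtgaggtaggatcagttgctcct
Hbb-bt, chr7:103813924-103814143, minus strand: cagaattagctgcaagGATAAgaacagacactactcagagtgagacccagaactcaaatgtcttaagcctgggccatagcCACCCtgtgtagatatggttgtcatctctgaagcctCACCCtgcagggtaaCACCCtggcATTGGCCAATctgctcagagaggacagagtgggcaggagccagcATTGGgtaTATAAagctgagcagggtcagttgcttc
Alas2, chrX:150547197-150547416, plus strand: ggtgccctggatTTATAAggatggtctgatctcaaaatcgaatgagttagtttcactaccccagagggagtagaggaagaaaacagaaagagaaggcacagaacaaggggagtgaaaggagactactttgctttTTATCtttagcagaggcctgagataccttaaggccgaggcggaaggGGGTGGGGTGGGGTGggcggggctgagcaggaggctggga
The Hba-a1 promoter is not printed because it shares a run of 297 bases with that of Hba-a2 in the 300 bases of the table, while the longest run shared by Hbb-bs and Hbb-bt was 14 bases. All 4 globin promoters held each of the 4 motifs within 250 bases before the start. That of Alas2 held the letters of all but the CCAAT box, and that of Epb42 held those of the TATA box and the GATA motif only. Each globin had TATAA at 27 to 30 bases before the start. In Alas2 these letters stood at 207 and, reversed, at 208 bases, and in Epb42 reversed at 125 bases. A match of letters does not show a working TATA box, and the use of these sites was not tested. Among 32851 mouse promoters, 22.8% held the TATA box in these 250 bases, 33.9% the CCAAT box, 52% the CACCC box and 22.6% the GATA motif, counting both strands and any overlap between motifs, so that each of these short words is common.

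In most livers counts on globins, which may lack shared reads, were a small part of all counts. Summed over the 4 adult globins, the level was 11.9 CPM in old HDM201 female 1, the lowest mouse, and 1062 CPM in old vehicle male 4, the highest, an 89.5-fold range. As a share of all counts this was 0.00115% and 0.101%. The group means were 159 ± 14.6 CPM (SD, n = 5) in young vehicle females, 187 ± 43 CPM (n = 4) in old females on vehicle and 70.4 ± 61.2 CPM (n = 5) in old HDM201 females. In males they were 163 ± 34.6 CPM (n = 4) with youth and vehicle, 458 ± 413 CPM (n = 4) with age and vehicle, and 89.1 ± 25.8 CPM (n = 5) with HDM201. By group mean the order from high to low was old vehicle males, old vehicle females, young males, young females, HDM201 males and HDM201 females, and neighbours in this order overlapped in range except young females, at 146 to 177 CPM, and HDM201 males, at 51.5 to 114 CPM.

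**Figure D1:**
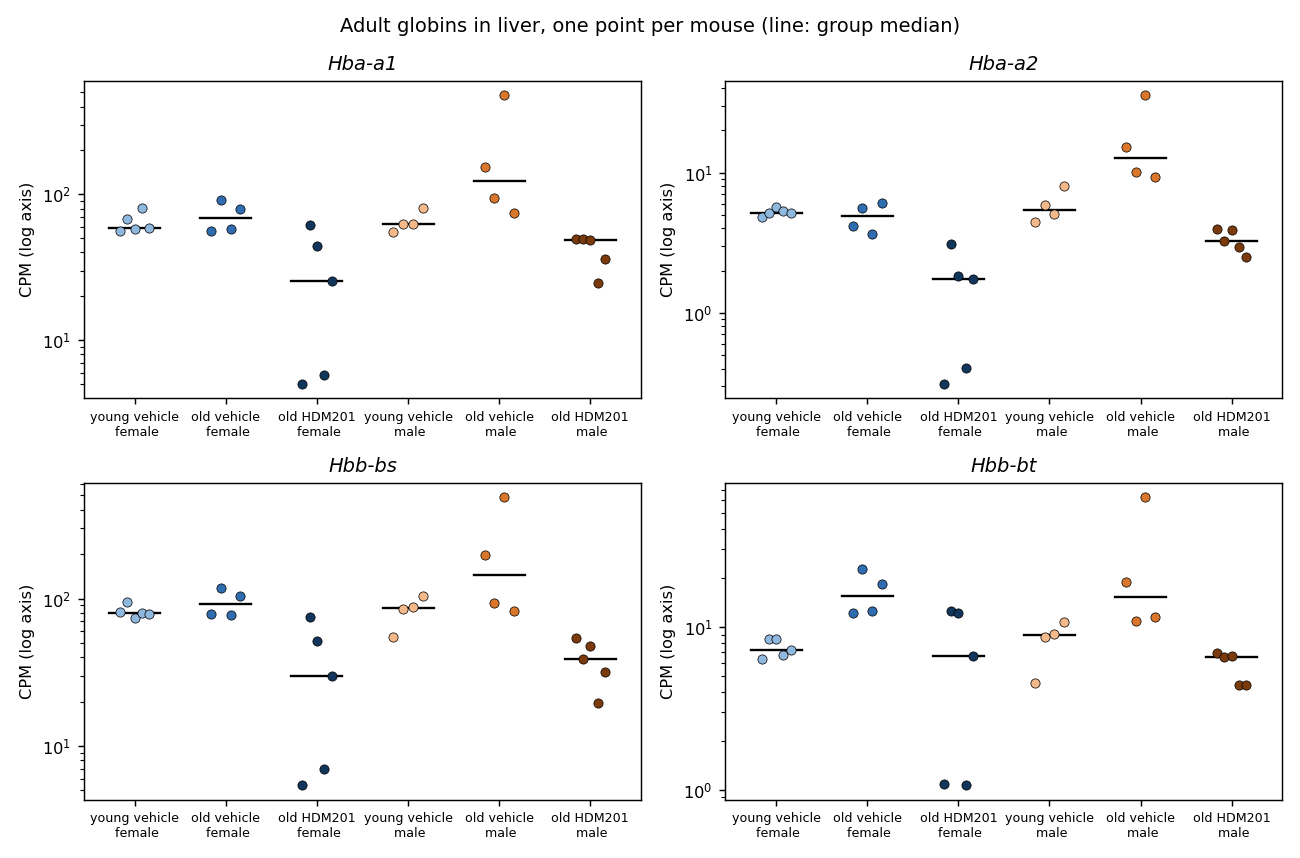
CPM (log axes) of Hba-a1, Hba-a2, Hbb-bs and Hbb-bt, with 1 point per mouse with counts and a line at each group's median. In every panel old vehicle male 4 is the highest mouse and old HDM201 females 1 and 4 are the lowest mice.

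Per kilobase of annotated exons, Hbb-bs and Hba-a1 were the most abundant members. In young vehicle females Hbb-bs was at 107 ± 10.4 CPM per kb, Hba-a1 at 79.1 ± 12.2, Hbb-bt at 10.6 ± 1.34, Hba-a2 at 7.83 ± 0.459 and Alas2 at 5.63 ± 0.706. Slc4a1 at 0.0201 ± 0.0198 CPM per kb and Epb42 at 0.00181 ± 0.00405 CPM per kb were close to absent. Within the alpha pair the order differed between counts and FPKM, while Hbb-bt was below Hbb-bs in both. Over all mice with counts Hba-a1 had 12.4 times the counts of Hba-a2, while by the deposited FPKM values (fragments scaled to transcript length and library) Hba-a2 was 1.34 times as high as Hba-a1. In young vehicle females Alas2 had means of 5.63 CPM per kb and 6.645 FPKM, but Hbb-bs of 106.6 and 350.8. In old vehicle females these means were 5.54 and 7.09 for Alas2, and 123.4 and 529.7 for Hbb-bs. Globin levels from counts may thus be too low, by a factor that differs between groups. The cause was not tested.

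The first comparison asked what HDM201 changed in old females. Hbb-bs was at 78.8, 118, 77.5 and 104 CPM in the 4 old vehicle females and at 5.41, 75.4, 51.2, 7 and 29.6 CPM in the 5 HDM201 females, numbered 1 to 5. Hba-a2 was at 4.18, 5.64, 3.65 and 6.03 CPM with vehicle and at 0.312, 3.11, 1.84, 0.401 and 1.74 CPM with HDM201. For both genes every HDM201 mouse lay below every vehicle mouse, and HDM201 females 1 and 4 lay far below the other 3. Hba-a1 was at 56.2, 91.2, 58.3 and 79.5 CPM with vehicle and at 5.05, 61.8, 44.2, 5.75 and 25.4 CPM with HDM201. Hbb-bt was at 12.3, 22.8, 12.5 and 18.5 CPM with vehicle and at 1.09, 12.6, 12.3, 1.07 and 6.69 CPM with HDM201. Here HDM201 female 2 reached into the vehicle range.

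The log2 fold changes (edgeR, with their SE) were -1.74 ± 0.46 for Hba-a2, -1.50 ± 0.59 for Hbb-bs, -1.34 ± 0.57 for Hba-a1 and -1.31 ± 0.56 for Hbb-bt. Alas2, at 12.4 to 14.5 CPM with vehicle and 5.62 to 11.9 CPM with HDM201, had a log2 fold change of -0.55 ± 0.18 without overlap between the groups. Of the 5 members that passed the filter on low counts 0 were called at an FDR under 0.05, where 5.25% of all genes tested were called. 3 members (Hbb-bs, Hba-a2 and Alas2) were lower without overlap, as 4.63% of all genes were. Slc4a1 and Epb42 did not pass the filter in any comparison. With HDM201 females 1 and 4 both left out, a choice made after their values were seen, the log2 fold changes of the globins were between -1.16 and -0.67 and that of Alas2 was -0.32.

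In old males the same comparison started from a much wider vehicle group. Hbb-bs was at 196, 93.8, 487 and 82.7 CPM in old vehicle males 2 to 5, and at 53.9, 38.8, 48, 19.5 and 31.6 CPM in HDM201 males 1 to 5. Hba-a1 was at 153, 94.2, 477 and 74.1 CPM with vehicle and at 49.5, 49.6, 48.3, 24.6 and 36.2 CPM with HDM201. Hbb-bt was at 10.8 to 62.9 CPM with vehicle and at 4.4 to 6.98 CPM with HDM201, and Hba-a2 at 9.33 to 35.6 CPM and at 2.49 to 3.96 CPM. All 4 globins were lower in every HDM201 male than in every vehicle male, a lack of overlap in this direction that 2.49% of all genes shared. Among the HDM201 males the levels lay close together, and old vehicle male 4 stood alone at the top.

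The log2 fold changes were -2.48 ± 0.50 for Hbb-bs, -2.40 ± 0.38 for Hba-a2, -2.26 ± 0.49 for Hba-a1 and -2.17 ± 0.49 for Hbb-bt, and that of Alas2 was -0.37 ± 0.17. edgeR called 0 of the 5 members tested, beside 0.00709% of all genes. Without old vehicle male 4 the globin values were between -1.80 and -1.25, and 1 member was called, as also without old vehicle male 3. With 1 mouse left out, 0 to 13 of all genes were called in males, the most without old vehicle male 3. The count of calls depended on the tool, as DESeq2 called 4 members lower here and 1 in females, beside 169 and 1329 of all genes. The female log2 fold change minus the male one was between 0.66 and 0.98 for the globins, with SEs between 0.66 and 0.86, and 0 members were called where 0.107% of all genes were. Globin means were lower with HDM201 in both sexes, and a difference between the sexes was not resolved at these SEs.

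**Figure D2:**
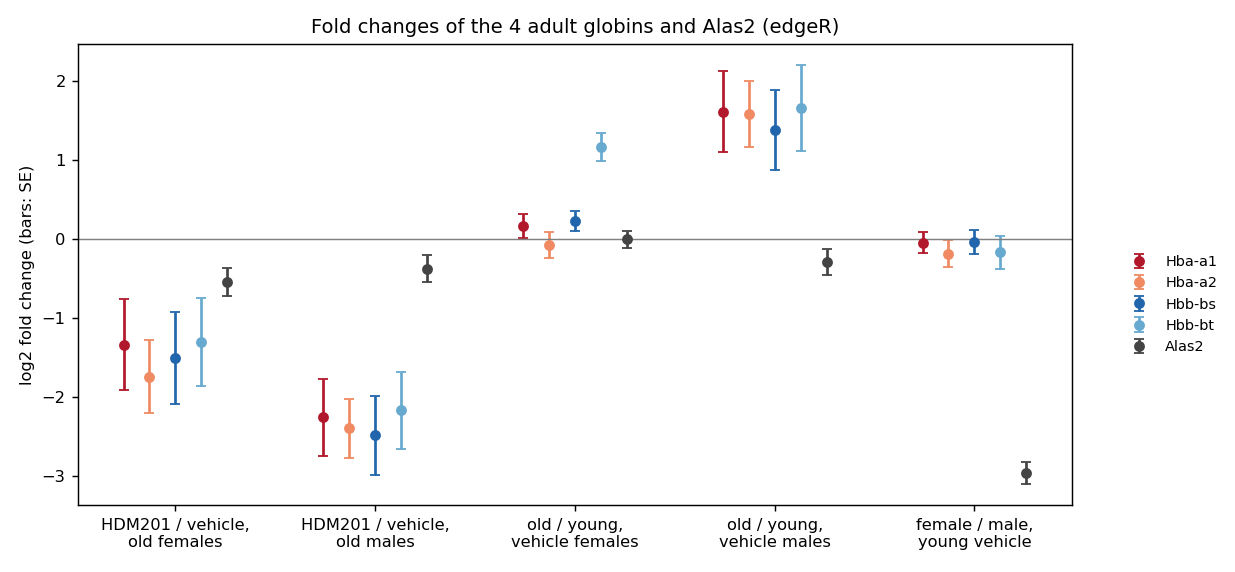
log2 fold changes with SE bars (edgeR) for the 4 adult globins and Alas2 in the 5 comparisons between pairs of groups. The globins lie below 0 with HDM201 in both sexes, Hbb-bt alone lies near 1 with age in females, and Alas2 lies near -3 in young females against young males.

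Old vehicle mice were compared with young vehicle mice to ask about age, which here includes the substrain. In females Hbb-bt was the only member that stood apart. It was at 6.41, 8.47, 8.41, 6.77 and 7.27 CPM in young females, below the 12.3 to 22.8 CPM of the old ones, with a log2 fold change of 1.17 ± 0.18. The other globins had values of 0.23 ± 0.13 for Hbb-bs, 0.17 ± 0.15 for Hba-a1 and -0.07 ± 0.16 for Hba-a2, and Alas2 had a value of -0.0024 ± 0.11. So 1 of 5 members was called, and it was called higher, where 31.8% of all genes were called and 16.8% were called higher. Hbb-bt was also the 1 member higher without overlap, as were 12.5% of all genes. With all 6 groups in one fit 0 members were called here. By FPKM the picture was another one, with log2 differences of 0.57 to 0.79 for all 4 globins in old females (limma on log2(FPKM + 1)), so the sign for Hba-a2 turned. The sum of the 4 globins also differed between the measures. By CPM young females, at 146 to 177, and old vehicle females, at 152 to 238, overlapped. By FPKM they did not, at 928.5 to 1155 and 1356 to 2217.

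In males Hbb-bt was at 4.51, 8.75, 9.13 and 10.7 CPM in young mice, below all 4 old mice. Hba-a2 was at 4.45 to 8.03 CPM in young males, also below all old ones with counts. By FPKM the ages overlapped in both genes. Hbb-bt was at 80.3 to 162.2 FPKM in young males 1 to 4 and at 130.7 in old vehicle male 5. Hba-a2 was at 245.4 to 432.8 FPKM in those young males and at 335.1 in old vehicle male 5. Young male 5, which had no counts, was at 644.8 and 1394 FPKM. The log2 fold changes were 1.66 ± 0.55 for Hbb-bt, 1.62 ± 0.51 for Hba-a1, 1.59 ± 0.42 for Hba-a2 and 1.39 ± 0.51 for Hbb-bs, against -0.29 ± 0.17 for Alas2. Of the 5 members 0 were called, beside 3.69% of all genes, and 2 were higher without overlap, beside 7.33%. Without old vehicle male 4 the globin values were between 0.58 and 0.98. The female minus male difference in the effect of age was -0.48 ± 0.60 for Hbb-bt and between -1.65 and -1.14 for the other globins, with 0 members called beside 3.92% of all genes.

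Young females and the 4 young males with counts had like globin levels, with log2 fold changes between -0.18 and -0.03 and SEs of 0.13 to 0.21. Young male 5 had FPKM only and is not in these values. Its globins summed to 4541 FPKM, against 928.5 to 1155 FPKM in young females. Alas2 alone differed, by -2.97 ± 0.14 in females against males. It was the 1 member called, where 10.5% of all genes were called and 4.91% were called lower in females, and the 1 member lower without overlap, as 5.79% of all genes were.

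The share of Hbb-bt among the counts of both beta globins was followed as well as its level. It was 7.28% to 10.3% in the 5 young females, 13.5% to 16.1% in the 4 old vehicle females and 13.3% to 19.3% in the 5 HDM201 females. In males it was 7.65% to 9.4% in young mice, 8.81% to 12.3% in old vehicle mice and 11.5% to 18.4% in HDM201 mice. The female young and old ranges did not overlap, while those of young and old vehicle males did, although the CPM of Hbb-bt did not overlap in either sex. In the mouse with the fewest globin counts, old HDM201 female 1, the share was 16.8% with an exact binomial 95% interval of 10.7% to 24.5%, which covers counting error only.

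Calculated from FPKM, the same share hardly moved. Its group means were 25% ± 1.18 in young females, 25.9% ± 0.849 in old females on vehicle and 27.3% ± 1.2 in HDM201 females, and 27.2% ± 2.03, 27% ± 0.822 and 29.3% ± 2.17 in the matching males (SD, n = 5 except 4 old vehicle females). The step between young and old females was thus seen in counts and not in FPKM, for a pair of genes whose coding sequences differ at 1 base. Young and old mice were of different substrains, which cannot be told apart from age here. The share of Hba-a2 among alpha globin counts was lower and flatter, with group means from 5.51% to 9.21%.

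**Figure D3:**
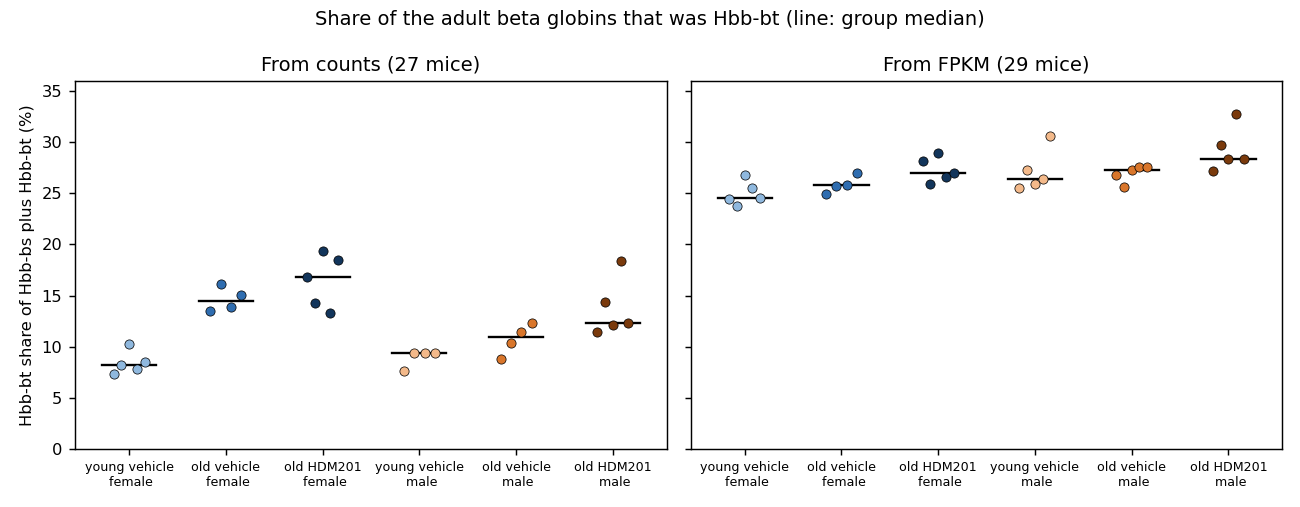
Hbb-bt as a percentage of Hbb-bs plus Hbb-bt in each mouse, from counts (left, 27 mice) and from FPKM (right, 29 mice), with lines at the group medians. From counts young females lie at 7.28% to 10.3% and old vehicle females at 13.5% to 16.1%, whereas from FPKM all 29 mice lie between 23.8% and 32.8%.

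The 4 globins varied together within groups, and less closely over all mice. Over the 27 mice, Spearman's rho of log2(CPM + 1) between pairs of globins was 0.607 to 0.951, and 0.905 to 0.949 after group means were subtracted. Each pair of values comes from the same library, the near-identical genes share sequence, and whether mice shared litters or batches is not stated. From counts, the ratio of alpha to beta globins per kilobase was 0.647 ± 0.013 in old vehicle females and 0.993 ± 0.118 in HDM201 males. These were the lowest and highest group means, so the ratio from counts was not the same in all groups. Mean FPKM of Hba-a1, Hba-a2, Hbb-bs and Hbb-bt was 415, 580, 530 and 185.5 in old vehicle females. In HDM201 males it was 163, 209, 193 and 78.1, so by FPKM the alpha to beta ratio of these groups was alike.

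Alas2 divided the mice by sex and not by globin level. It was at 11.4 to 15.4 CPM in young females, 79.4 to 124 CPM in young males, 71.1 to 108 CPM in old vehicle males and 49.7 to 91 CPM in HDM201 males. The lowest male, at 49.7 CPM, was above the highest female, at 15.4 CPM. Male means were 7.75 times the female mean in young mice, 6.43 times in old vehicle mice and 7.17 times in HDM201 mice. In old vehicle male 4, the mouse with the most globin RNA, Alas2 was at 76.9 CPM, within its group's range. Over all mice Spearman's rho with the single globins was 0.131 to 0.552, and it was 0.301 to 0.427 after group means were subtracted. The order of Alas2 and of the globins within a group differed from group to group. In old vehicle males the globin sum was highest in male 4, then 2, 3 and 5, while Alas2 was highest in male 5, then 3, 4 and 2. The 5 HDM201 males had the same order for Alas2 and for the globin sum, and the 5 HDM201 females had it except for females 2 and 3, which changed places.

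**Figure D4:**
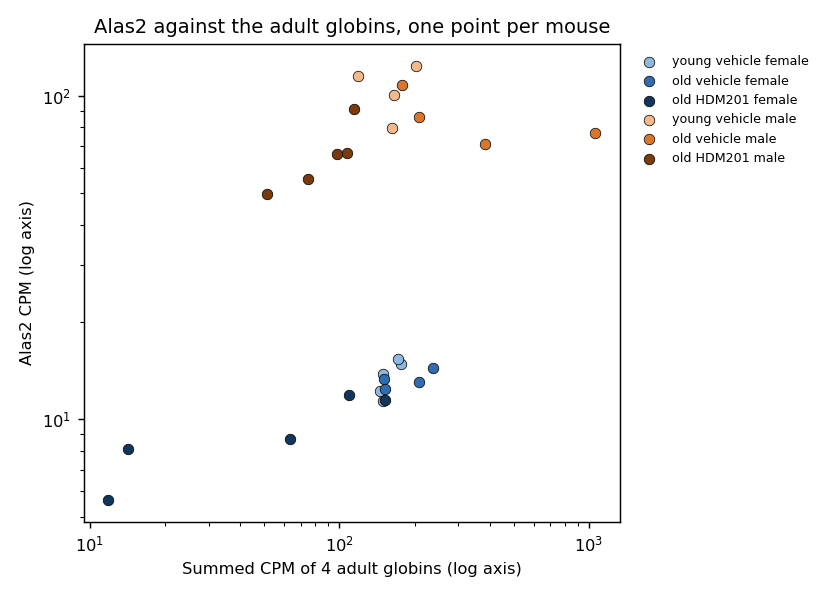
Alas2 CPM against the summed CPM of the 4 adult globins in each of 27 mice, both on log axes. All males lie at 49.7 CPM of Alas2 or above and all females at 15.4 or below, over an 89.5-fold range of globin levels.

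The red cell membrane members were near the limit of detection. Slc4a1 had 213 counts in all, of which 50 came from old vehicle female 4 and 77 from old vehicle male 4. The other 25 mice had 0 to 12 counts each. Epb42 had 13 counts in all, with 3 and 4 in those same mice, and 0 in all 5 HDM201 males, which allows up to 3 counts over that group. Old vehicle male 4 was thus the highest mouse for the globins, Slc4a1 and Epb42 alike, whereas old vehicle female 4, with 208 CPM of globins, was within its group's range of 151 to 238 CPM.

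A list of 22 other red cell genes did not set these mice apart in its sum, which was 196 to 215 CPM in old vehicle females, 175 to 216 CPM in old vehicle males and up to 218 CPM in HDM201 males. Some of its low genes were high in 1 or both of them. Kel, a blood group antigen, had 12 counts in old vehicle female 4 and 3 in old vehicle male 4, and at most 1 in every other mouse. Trim10 had 19 counts in old vehicle male 4 against 0 to 8 in the others, with 8 in old vehicle female 2 and 5 in old vehicle female 4. Hemgn had 7 counts in old vehicle female 4, 0 in old vehicle male 4 and at most 1 elsewhere. These 3 genes were picked after values were seen. Summed over the 14 list genes with a mean below 1 CPM, a cut made after values were seen, these mice had 9.87 and 5.42 CPM, against 0.26 to 2.43 CPM in all others, and old HDM201 females 1 and 4 were lowest with 0.26 and 0.356 CPM. The embryonic and minor globins were at 0 to 5 counts per mouse over 6 genes, with 0 counts in all mice for Hba-x, Hbb-bh1 and Hbb-bh2.

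The same mice also held RNA of early neutrophils. Mpo, the myeloperoxidase of neutrophil precursors, had 122 counts in old vehicle female 4 and 81 in old vehicle male 4, beside 84 in old HDM201 male 4, 48 in old vehicle female 2 and 0 to 9 in the other 23 mice. Old HDM201 male 4 had 51.5 CPM of globins, the lowest of its group. Without Cebpe the summed neutrophil markers ranged over 2.36 to 5.22 CPM in young females, 8.84 to 67.8 CPM in old vehicle females, 9.8 to 14.8 CPM in HDM201 females, 2.35 to 10.8 CPM in young males, 4.61 to 60.4 CPM in old vehicle males and 7.2 to 66.6 CPM in HDM201 males. With all 16 markers the sums of young females, at 9.18 to 18.4 CPM, and old vehicle females, at 12.8 to 72.4 CPM, overlapped. The 11 platelet and megakaryocyte markers summed to 22.7 CPM in old vehicle female 4 and 12.9 CPM in old vehicle male 4, against 4.95 to 11.2 CPM in the others. The part of these cells in the globin levels was not tested.

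**Figure D5:**
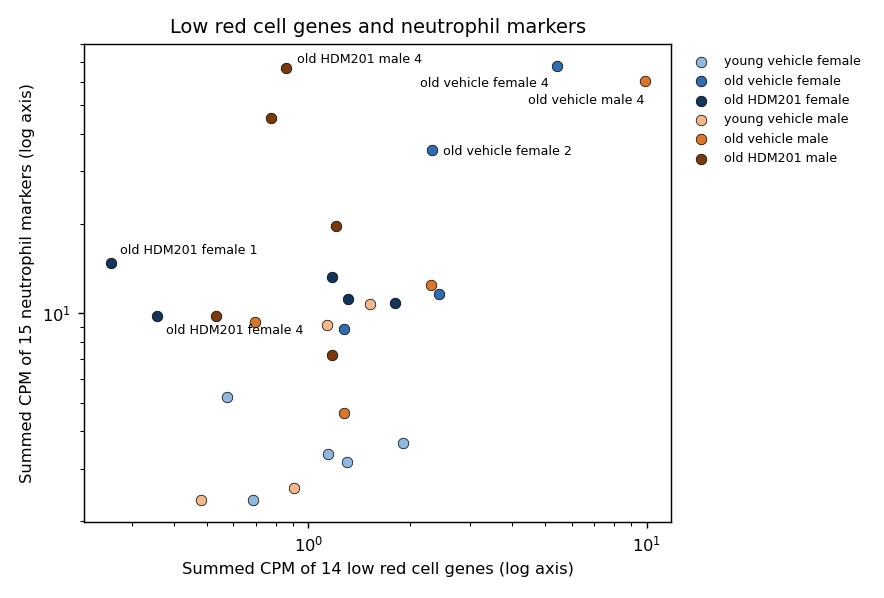
Summed CPM of 14 low red cell genes (horizontal, log axis) and of 15 neutrophil markers (vertical, log axis) in each of 27 mice. Old vehicle female 4 and old vehicle male 4 are high on both axes, old HDM201 males 4 and 5 are high on the neutrophil axis only, and old HDM201 females 1 and 4 are at the left edge.

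Genes that act beside the members were followed through lists of red cell genes, erythroid regulators, heme synthesis, heme clearance, iron handling and oxygen sensing. With HDM201 in females edgeR called 4 of the 69 genes tested in these 6 lists, or 5.8%, near the 5.25% of all genes. All 4 were lower. Tfrc, the transferrin receptor, fell by 0.44 on the log2 scale (SE 0.07, FDR 0.00999). Egln1 and Vhl, which mark HIF for destruction when oxygen is present, fell by 0.36 (SE 0.07, FDR 0.0155) and 0.29 (SE 0.07, FDR 0.0474). Blvrb, which reduces biliverdin, fell by 0.28 (SE 0.07, FDR 0.0334). None of the 9 tested red cell genes and none of the 13 genes of heme synthesis was called, at median log2 fold changes of -0.20 and -0.08, beside 0.001 over all genes. The call of Tfrc held with each single mouse left out, and those of Egln1 and Blvrb were lost with at least 1. That of Vhl was lost whichever mouse was left out (FDR 0.0537 to 0.129). All 4 were lost when HDM201 females 1 and 4 were left out together (FDR 0.0629 to 0.13). The neutrophil gene Ngp fell by 3.35 (SE 0.80, FDR 0.0369). It was at 0.635, 4.88, 0.387 and 9.14 CPM in the 4 vehicle females and at 0.163 to 0.545 CPM with HDM201, so vehicle females 2 and 4 were high and the groups overlapped. Its call was lost without either of these mice (FDR 0.103 and 0.111, at a log2 fold change of -2.43 without female 4) or without any single HDM201 female. In HDM201 males edgeR called 0 genes of any list, with 1710 genes at an unadjusted p under 0.05 over the whole table and 169 genes called by DESeq2.

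With age in females 27 of the 69 genes tested in the 6 lists were called, or 39.1%, beside 31.8% of all genes. Among red cell genes Tspan33 rose by 0.67 (SE 0.20) and Bpgm, the enzyme whose product lowers oxygen binding of hemoglobin, by 0.60 (SE 0.13), while Car1, a carbonic anhydrase, fell by 1.11 (SE 0.18, FDR 0.000804) and Bnip3l was also called lower. That makes 3 higher and 2 lower of 9 tested, at a median of 0.27. Of the 11 tested erythroid regulators 3 rose and 2 fell. Nfe2, a factor of globin gene activation, rose by 1.06 (SE 0.25, FDR 0.00737), Zfpm1, the GATA1 partner, rose by 0.65 (SE 0.14), Ldb1, a cofactor of GATA1, fell by 0.41 (SE 0.07), and Klf1, the CACCC-binding activator of adult beta globin, fell by 0.73 (SE 0.16, FDR 0.0052).

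Heme synthesis had 1 call of 13 in this comparison, for Alas1, the form of the enzyme used by hepatocytes, which fell by 0.72 (SE 0.23, FDR 0.0316). Heme clearance had 5 genes higher and 1 lower of 11. Hmox1, which opens the heme ring, rose by 1.23 (SE 0.21, FDR 0.00109), and so did Spic, a factor of macrophages that recycle iron, by 1.25 (SE 0.31, FDR 0.00838) and Hp, haptoglobin, by 0.65 (SE 0.13, FDR 0.00218). Cd163, the macrophage receptor for hemoglobin bound to haptoglobin, fell by 1.82 (SE 0.29, FDR 0.000722). Of 18 iron genes 5 rose, among them Trf, transferrin, by 0.54 (SE 0.10) and Slc11a2, an iron importer, by 0.63 (SE 0.15). The 3 that fell included Hamp2, a hepcidin, by 0.92 (SE 0.19) and Ireb2, an iron-responsive RNA-binding protein, by 0.60 (SE 0.11). Egln1 and Vhl of oxygen sensing rose by 0.45 (SE 0.09) and 0.42. Of 16 neutrophil markers 6 passed the filter on low counts, and 5 of these rose. Among the 5 were S100a9 by 4.00 (SE 0.70, FDR 0.00126), Prtn3 by 3.94, S100a8 by 3.82 and Mmp9 by 1.71. Cebpe fell by 0.92. S100a8 was at 0 to 0.344 CPM in young and 0.582 to 6.41 CPM in old females, and Prtn3 at 0 to 0.411 and 0.94 to 7.16 CPM. Both passed the filter through the old group, so the 5 of 6 supports nothing about the list. Of 8 hepatocyte genes 2 fell, Cps1 by 0.94 and Cyp3a11 by 0.80, and Pf4 of platelets rose by 1.73 (SE 0.47, FDR 0.0144). Only 3 of the 11 platelet markers passed the filter, and Pf4 was low, at 0.26 to 0.571 CPM in young females. The calls of Tspan33 and Pf4 were lost without old vehicle female 4 (FDR 0.0735 and 0.0588). That of Alas1 was lost without old vehicle female 1 or 4 or without young vehicle female 1, 3 or 5 (FDR up to 0.094).

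Age in males gave 3 calls among the 84 genes tested in all lists, or 3.57%, near the 3.69% of all genes. Nfe2 rose by 1.95 (SE 0.45, FDR 0.0448), Tent5c, a poly(A) polymerase, rose by 0.85 (SE 0.17, FDR 0.0267), and Hmox2, the constitutive heme oxygenase, fell by 0.42 (SE 0.09, FDR 0.0326). The call of Nfe2 was lost when single mice were left out, up to an FDR of 0.108, and so was that of Tent5c (up to 0.0823). That of Hmox2 was lost whichever mouse was left out (FDR 0.0533 to 0.0908). Hamp, the hepcidin that limits iron release into blood, was not called. It was at 1026, 519, 100.1 and 356 CPM in old vehicle males 2 to 5, so that old vehicle male 4, the mouse with the most globin RNA, had the least Hamp of all 27 mice, against 356 to 1638 CPM in the others.

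Between young females and young males Hamp2 was higher in females by 4.28 (SE 0.25, FDR 4.54e-07), while Hp and Hpx, hemopexin, which bind free hemoglobin and heme in plasma, were lower, with log2 fold changes of -1.58 (SE 0.28, FDR 0.0045) and -1.19 (SE 0.27, FDR 0.0158). Abcb10, a mitochondrial transporter needed for heme synthesis, was lower in females at -0.54 (SE 0.11, FDR 0.00833), the 1 call of 13 in that list. Alas1, with a log2 fold change of -0.24 (SE 0.44), was not called. Of 9 red cell genes Tmcc2 (1.03, FDR 0.0106), Tent5c (0.98, FDR 0.00497) and Aqp1, a water channel (0.64, FDR 0.0146), were higher in females on the log2 scale and Tspan33 (-0.86, FDR 0.0389) was lower. Bmp2, an inducer of hepcidin, was higher by 0.80 (FDR 0.0074) and Hmox1 by 0.43 (FDR 0.0327), while Slc11a2 (-0.67), Vhl (-0.63), Zfpm1 (-0.55) and Tfr2 (-0.37) were lower. The calls of Tspan33, Zfpm1, Hmox1, Slc11a2, Tfr2 and Vhl were each lost when young male 4 or young male 3 was left out (FDR up to 0.125).

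The genes whose levels most resembled the mean of log2(CPM + 1) of the 7 members over the 27 mice held none of the list genes. The 10 closest of 12770 genes had Spearman's rho of 0.71 to 0.774. They were Rps6kb1, Slc35e3, Gm7160, Abce1, Nsd3, Tmem33, Nol8, Pgam1, C2 and Prxl2b, in this order. The mean includes Alas2 and so carries the difference between the sexes. After group means were subtracted 0 of these 10 stayed among the closest 10, which then ran from Zfp341 at 0.664 to Ncf4 at 0.594, and for the mean of the 4 globins alone 2 of them stayed, Tmem33 and Gm7160. These correlations share library, depth and group structure and are given as a description.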

How the data were processed

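Liver RNA was sequenced by the authors, who aligned reads to mm10 with STAR in 2-pass mode, counted them on genes with HTSeq and made FPKM with Cufflinks. Versions, annotation and the strand setting are not given in the sources used here, so genes that overlap or share sequence are uncertain. The deposited counts are whole numbers without normalization, for 27 mice. The deposited FPKM values, scaled by the authors to transcript length and library size, cover 29 mice. Empty FPKM cells were read as 0. FPKM columns sum to between 690800 and 6011000, so FPKM served only as an alternative and for the 2 mice without counts. The design assumed 5 old and 5 young vehicle males and the counts hold 4 of each.

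Fits were made in R 4.3.3 with edgeR 4.0.16 and took in just the groups compared. Genes passed filterByExpr (count minimum 10, total minimum 15), scaling was by TMM, and the quasi-likelihood test was adjusted by Benjamini-Hochberg over all genes tested, with calls at an FDR under 0.05. Fold changes of members carry no p because they were chosen for their levels. CPM used TMM library sizes over all 27 mice, and levels between genes were compared per kilobase of the union of exons in the GENCODE annotation of GRCm38. Depth was 16485900 to 23570458 counts per mouse, and a count of 0 allows up to 3 counts. Intervals and this limit cover counting error only. Whether mice were independent in litter or batch is not stated, so the spread between them may be partly technical. The fits were tested on simulated data.

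The members and lists were chosen with earlier results of these data known. Named are the members, from each list and comparison up to 4 called genes with the largest change, the list gene of highest mean CPM, and the 10 genes most like the members. Kel, Trim10, Hemgn, Mpo and Hamp were named after their values were seen. Some list genes that these rules would name are not reported here, though sums and counts over the lists include them. The lists hold 22 red cell genes, 8 embryonic and minor globins (6 found), 14 erythroid regulators, 13 genes of heme synthesis, 11 of heme clearance, 19 of iron handling, 8 of oxygen sensing, and markers of platelets (11), neutrophils (16) and hepatocytes (8). Alternatives were RLE size factors, DESeq2 1.42.0, no filter, a single fit of the 6 groups, a block for replicate number, leaving out single mice, library sizes without the members, and limma 3.58.1 on log2(FPKM + 1) with a mean FPKM of at least 0.1.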

Additional observations from a re-analysis of the deposited data

Results flagged for a closer look

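In groups of 4 or 5 mice, a mouse far from the rest was sought for each member with Dixon's ratio, the gap to the nearest mouse over the range of the group, which chance puts over its limit in about 1 in 20 groups. The ratio describes values that chose the members and supports nothing. Of 42 sets 6 passed. Old vehicle male 4 was far above its group for Hbb-bt (ratio 0.844) and Slc4a1 (0.957), and old vehicle female 4 for Slc4a1 (0.867). The other 3 were Epb42 in young vehicle female 5, old HDM201 female 2 and young vehicle male 2 (ratio 1 each), where that mouse had 1 count and the rest of its group 0, so that the ratio is fixed at 1 and the count of 6 cannot be read against the share given by chance.

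The effect of age differed between females and males in 8 of the 89 list genes tested, or 8.99%, by the interaction term of edgeR, where 3.92% of all genes were called. Old females were 20 and old males 24 months of age, so the term compares different spans of age as well as the sexes. The female minus male log2 change was 1.43 for Hp (FDR 0.033), 0.684 for Lrp1, a receptor for hemopexin with bound heme (FDR 0.0371), 0.676 for Tfr2 (FDR 0.0155) and 0.672 for Hfe (FDR 0.0107), both sensors of transferrin iron, 0.654 for Cpox of heme synthesis (FDR 0.0441), 0.601 for Egln1 (FDR 0.015), -1.10 for Cebpe (FDR 0.035) and -1.70 for Car1 (FDR 0.0376). Hfe, Tfr2 and Egln1 kept the call with each single mouse left out, and the other 5 lost it with at least 1. With HDM201, 0 list genes differed between the sexes by edgeR.

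In young vehicle male 5 only FPKM could be read, and it had FPKM values above all other young males for 6 members. Hbb-bs was at 1462 FPKM, Hba-a2 at 1394, Hba-a1 at 1040 and Hbb-bt at 644.8, so the globins summed to 4541 FPKM against 752 to 1364 in the other 4 young males. Slc4a1 was at 2.65 and Epb42 at 0.295 FPKM, while Alas2, at 25.8 FPKM, was below the 38.2 to 60.1 of the others. FPKM of Slc4a1 should be read with its counts at hand, since old HDM201 male 4 had 5.72 FPKM with 4 counts.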

How the results depend on the processing

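No called fold change named above turned its direction under these settings. Member fold changes moved by less than the larger SD between mice of the groups compared in 220 of 220 values with 1 mouse left out. This count does not show stability, since leaving out 1 mouse can hardly shift a group mean by that SD. Hba-a1 with HDM201 in males went from -2.26 to -1.36 without old vehicle male 4 and stayed within it. Under the other settings 176 of 180 values moved by less. The exceptions were the 4 globins with age in females by FPKM, where the uncalled value of Hba-a2 turned from -0.07 to 0.79. Uncalled member values near 0 also crossed it elsewhere, as Alas2 with age in females (-0.06 to 0.09). Of the calls of list genes, 138 of 565 values were lost with 1 mouse left out and 53 of 394 otherwise. RLE scaling and library sizes without the members changed no count of calls by over 1.5 times. Scaling by total counts moved the median of all genes by 0.105 with age in females and by less than 0.1 elsewhere. Depth limits Slc4a1, Epb42 and the low red cell genes to single counts in most mice.

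Counts of called genes moved more. DESeq2 called 1329 genes with HDM201 in females (758 by edgeR), 169 in males (1), 1309 with age in males (507), 664 for sex by HDM201 (16) and 1173 for sex by age (577), and members as 1 and 4 lower with HDM201 in females and males and 1 higher with age in males. Without the filter these were 22 genes with HDM201 in males, 968 with age in males and 122 for sex by HDM201, with 2 and 4 members lower with HDM201 and 2 and 4 higher with age in females and males. With all 6 groups in one fit they were 208 and 6 genes with HDM201, 2007 with age in males and 2484 for sex, with 1 member lower in each sex with HDM201 and 0 and 2 higher with age. By limma on FPKM they were 51 and 2 genes with HDM201, 167 with age in males, 669 for sex and 0 for sex by HDM201, with 4 members higher with age in females. Without HDM201 females 1 and 4, chosen after the data were seen, 20 genes were called. The cause of these shifts was not tested.

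With 1 mouse left out, calls ranged over 185 to 956 genes (HDM201, females), 0 to 13 (HDM201, males), 3502 to 4494 (age, females), 144 to 579 (age, males), 764 to 1865 (sex), 0 to 314 (sex by HDM201) and 207 to 1193 (sex by age). The lowest counts came without old vehicle female 2, old HDM201 male 1 among others, old vehicle female 2, old vehicle male 4, young male 4, old vehicle female 1 among others, and old vehicle female 4. Members called ranged from 0 to 1 lower with HDM201 in each sex and from 0 to 1 higher with age in males. The 1 call came without HDM201 female 2, old vehicle male 3 or 4, and old vehicle male 5.

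By FPKM Hba-a2 was 1.34 times Hba-a1 (0.0985 per kb by counts) and Hbb-bt 0.363 times Hbb-bs (0.142). The highest rho of a gene with the members was 0.664 after group means were subtracted, 0.705 for the 4 globins and 0.689 for both, against 0.774.

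Replicate numbers were taken as a block as well. Of 19 pairs of samples with 1 number 4 deviated together with r over 0.1 (range -0.222 to 0.222) and 5 correlated best with their own number, so they share only a number. The replicate block gave 366 genes with HDM201 in females, 29 with age in males, 858 for sex, 0 for sex by HDM201 and 183 for sex by age.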

Other observations

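Old vehicle male 1, the other mouse without counts, had 1505 FPKM summed over the globins, within the 1066 to 6756 of the other old vehicle males. It had 377.6 FPKM for Hba-a1, 514.8 for Hba-a2, 448.5 for Hbb-bs and 164.3 for Hbb-bt, and its Alas2 was at 35.9 FPKM, beside 35.4 to 51.3 in the others. With both mice included, the mean globin FPKM was 1763 ± 1568 (SD, n = 5) in young vehicle males and 2676 ± 2358 (SD, n = 5) in old vehicle males, and each group held 1 mouse far above the others, young male 5 and old male 4.

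The list genes of highest mean varied less between mice than the globins did. Bnip3l, a mitochondrial receptor with a part in the loss of mitochondria from maturing red cells, was at 62.1 to 86.7 CPM in the 27 mice, and Zfpm1 was at 37.4 to 100.3 CPM. Epas1, an oxygen-sensing factor, was at 186 to 339 CPM and Trf at 14840 to 27100 CPM. Hpx ranged from 2593 to 11850 CPM and Alas1 from 172 to 1084 CPM. Among markers Itga2b of platelets was at 2.91 to 7.58 CPM and Cebpe of the neutrophil lineage at 3.65 to 13.2 CPM. Hbq1b, the highest of the minor globins, reached 0.241 CPM.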
